A study of Mus musculus with 16 samples.

Results

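The leukocyte adhesion molecules of the vessel wall were followed in RNA from lymphatic endothelial cells of the mouse heart. The 5 genes, chosen by name, were Sele, Selp, Icam1, Icam2 and Vcam1. Each had 1 row among the 15895 genes of the deposited table, and all 5 passed the filter on low values used for the tests. Cells that were negative for CD45, positive for CD31 and positive for podoplanin had been sorted from hearts of CD1 (ICR) mice. The 4 groups, with 4 libraries each, were sham P1 (a sham operation at postnatal day 1), MI P1 (myocardial infarction at postnatal day 1), sham P56 and MI P56 (the same operations at day 56), and hearts were taken 3 days after surgery in each. No gene was altered in these animals. Neonatal ventricles were cut up, pooled 6 at a time and dissociated with stirring. The adults were males, and their hearts were perfused with enzyme more briefly. Age therefore cannot be told apart from pooling, dissociation or sex. Whether libraries of 1 group stem from separate animals or pools is not stated, so p-values measure only the spread between libraries, which may be technical.

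Endothelium captures leukocytes in steps. The selectins Sele (E-selectin) and Selp (P-selectin) hold passing cells loosely by binding sugars on their surface, and the immunoglobulin-family molecules Icam1, Icam2 and Vcam1 then bind leukocyte integrins and hold them firmly. Sele, Icam1 and Vcam1 are induced by inflammatory cytokines such as TNF and IL-1, largely through the transcription factor NF-kB, whereas Icam2 is made by resting endothelium. P-selectin protein is stored in the Weibel-Palade bodies of endothelium and in the granules of platelets. In lymphatic vessels leukocytes travel outward, from the tissue into the vessel, and inflamed lymphatic endothelium is known to use ICAM-1 and VCAM-1 for this.

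In the GRCm38 coordinates of the deposited table Sele and Selp are both on the plus strand of chromosome 1. Sele runs from 164048234 to 164057677 and Selp from 164115264 to 164150026. Icam1 is on the plus strand of chromosome 9 from 21015985 to 21028817, next to Icam4. Icam2 is on the minus strand of chromosome 11 from 106377656 to 106388075. Vcam1 is on the minus strand of chromosome 3 from 116109949 to 116129688. Noncoding genes on the opposite strand share exonic bases with Selp (186 with Gm16587 and 438 with Gm16548), with Icam1 (511 with Gm47079) and with Vcam1 (61 with Gm43109). The strand setting of the counting is not given in the sources used here, so reads of these stretches cannot be assigned to either strand.

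The 250 bases before the start are shown, where a promoter was matched, because cytokine-induced genes such as Sele and Icam1 are known to answer inflammation through motifs there. Selp is shown beside them. RefSeq promoters on GRCm38.p6 were matched for 3 of the 5 genes: chr1:164047984-164048233 for Sele, chr1:164115014-164115263 for Selp and chr9:21015690-21015939 for Icam1, all on the plus strand. Icam2 and Vcam1 are named only. The Icam1 window ends at 21015939, short of the gene start at 21015985 given above, and its distances are counted from the end of the window. Capitals mark matches, on either strand, to the NF-kB motifs GGGNNNNNCC and GGANNNTCC, the AP-1 motif TGANTCA and the TATA motif TATAAA.
Sele: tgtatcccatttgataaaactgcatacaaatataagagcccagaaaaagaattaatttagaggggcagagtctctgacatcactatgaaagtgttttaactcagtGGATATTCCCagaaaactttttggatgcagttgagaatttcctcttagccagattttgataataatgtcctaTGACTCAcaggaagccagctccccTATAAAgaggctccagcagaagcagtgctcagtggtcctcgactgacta
Selp: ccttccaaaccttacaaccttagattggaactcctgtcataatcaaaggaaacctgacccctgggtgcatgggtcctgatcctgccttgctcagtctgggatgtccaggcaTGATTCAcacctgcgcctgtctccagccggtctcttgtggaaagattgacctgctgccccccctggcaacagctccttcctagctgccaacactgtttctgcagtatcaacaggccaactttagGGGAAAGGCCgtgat
Icam1: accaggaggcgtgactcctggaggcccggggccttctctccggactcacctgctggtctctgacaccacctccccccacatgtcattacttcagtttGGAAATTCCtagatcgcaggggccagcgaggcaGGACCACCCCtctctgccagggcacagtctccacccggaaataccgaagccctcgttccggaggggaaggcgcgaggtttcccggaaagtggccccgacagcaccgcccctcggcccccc

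The Sele window held the NF-kB match GGATATTCCC from 145 to 136 bases upstream, where both NF-kB motifs overlap, then the AP-1 match TGACTCA from 73 to 67 and the TATA match from 49 to 44. The Selp window held GGGAAAGGCC from 15 to 6 bases upstream and TGATTCA from 139 to 133. The Icam1 window held GGAAATTCC from 153 to 145 bases upstream and GGACCACCCC from 120 to 111. Among 32851 promoter windows of the same length, 45.8% held GGGNNNNNCC, 7.27% held GGANNNTCC, 6.75% held TGANTCA and 12.4% held TATAAA. The Icam1 window was 65.2% G and C, that of Selp 53.6% and that of Sele 40.4%, against a median of 52.4% over all windows. These matches describe letters and not binding.

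The 16 libraries held 17103319 to 43837520 reads on the listed genes. In 3 of them only 7746 to 9451 genes had a read, against 14121 to 15821 genes in the other 13, and the tests below rest on the 13 libraries (of MI P56 3, of sham P56 4, of MI P1 4 and of sham P1 2), with all 16 as an alternative. Libraries are named by the number in the table's columns, which runs 1, 2, 3 and 5. Left out were sham P1 libraries 1 and 2 and MI P56 library 5. Reads on genes other than Uqcrc1, mt-Rnr1 and mt-Rnr2 numbered 41346 to 6376296 in these 3 and 6709566 to 12918569 in the 13. Values are in the unit of the deposited table, which the authors named CPM. A value of 3 reads was 0.0489 to 0.109 in the 13 libraries. All of the lymphatic markers found in the table (7 of 8, among them Prox1 and Lyve1) were read in every group, with summed levels of 981 to 3071.1, and 0 of the 7 passed the test in any comparison. The CD45-negative sort notwithstanding, leukocyte markers summed to 2.35 to 32.5, fibroblast markers to 437 to 3112.9 and cardiomyocyte markers to 91.7 to 2224.8. In RNA of sorted populations such as these, fewer cells of a type and less RNA per cell cannot be told apart.

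**Figure D1:**
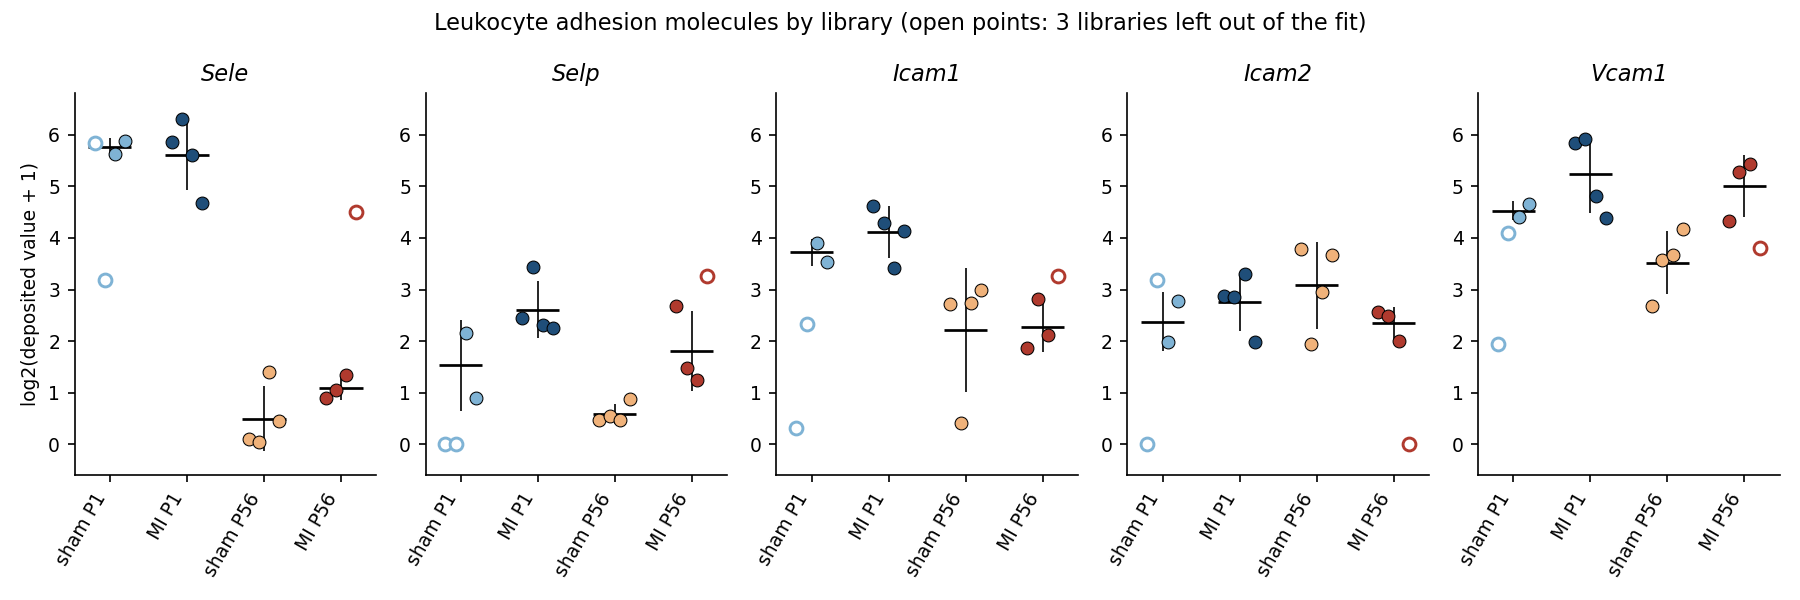
Level of the 5 genes in each of 16 libraries, as log2(value + 1) of the deposited values, by group. Filled points are the 13 libraries tested, open points the 3 left out, horizontal bars the mean and vertical bars 1 SD of the filled points. The 6 filled neonatal Sele points lie above the 7 filled adult ones, and the 3 filled MI P56 points of Vcam1 lie above the 4 of sham P56. All MI P56 libraries lay above all sham P56 libraries for 8% of genes tested.

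Sele, the selectin made by cytokine-activated endothelium, was a neonatal transcript in these libraries. Its level was 48.6 and 58.1 in the sham P1 libraries, and 56.9, 77.8, 47.7 and 24.7 after neonatal infarction. In the sham P56 libraries it was 0.0672, 0.0259, 1.65 and 0.374, of which the lowest values are 3 reads and 1 read, and after adult infarction it was 0.862, 1.06 and 1.53. Of the 13 libraries, every neonatal one was above every adult one. Among the 3 left out, Sele was at 56.2 and 8.08 in sham P1 and at 21.6 (5 reads) in MI P56. A value of 3 reads was 0.359, 12.1 and 12.9 in those libraries, above that of the 13. The means were 53.4 ± 6.75 (SD, n = 2) in sham P1 and 0.528 ± 0.761 (n = 4) in sham P56, a 101-fold ratio, and 51.8 ± 22.0 (n = 4) in MI P1 and 1.15 ± 0.344 (n = 3) in MI P56, a 45-fold ratio. Sham P56 library 3 carried most of the adult sham mean, and without it the first ratio was 343-fold. On the log2(value + 1) scale, which understates the change of low genes, Sele fell by 5.26 ± 0.43 (SE) from P1 to P56 in sham (limma, adjusted p = 5.21e-07) and fell by 4.52 ± 0.38 after MI (adjusted p = 1.01e-06). Its p was the 5th smallest of 13033 genes in sham and the 4th smallest after MI.

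The age difference of Sele passed the test in each of the 13 fits that left out 1 library, with log2 differences of -5.56 to -5.11 in sham and -4.83 to -4.29 after MI. With all 16 libraries the differences were -4.64 (limma, adjusted p = 0.000955) and -3.67 (adjusted p = 0.0407), in comparisons that called 3.91% and 0.106% of all genes. In sham, genes lower at P56 were 7.28% of those tested, and after MI 3.26%. Groups that did not overlap, with P56 lower, were found for 16.7% of genes in sham and 11.2% after MI. Markers of all endothelium summed to 438 to 570 in sham P1 and 582 to 668 in sham P56. Of the lymphatic markers, Prox1 averaged 371 ± 96.6 (n = 2) and 259 ± 70.7 (n = 4) and Lyve1 674 ± 117 and 460 ± 125 in these groups, and neither passed the test. Markers of venous and capillary blood endothelium summed to 171 to 215 in sham P1 and 582 to 967 in sham P56. Of the 9 tested, 6 were called higher in sham P56 and 0 lower. Plvap, which was not called, was lower in sham P56 like Sele, at 5.95 ± 1.76 (n = 2) and 3.63 ± 2.08 (n = 4; log2 difference -0.72). Cardiomyocyte markers were all called higher in sham P56 (6 of 6, limma), with sums of 141 to 216 in sham P1 and 1220.6 to 2224.8 in sham P56. The part of these other cell types in the age differences was not tested.

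The Sele difference with infarction passed the test at neither age. At P1 the difference was -0.15 (95% interval -1.05 to 0.75), and at P56 it was 0.59 (-0.20 to 1.39; limma, adjusted p = 0.45), where the means correspond to a 2.18-fold ratio at levels close to 1, or 7.38-fold without sham P56 library 3. In the infarcted adult hearts the highest Sele value, 1.53, was still below the highest sham value of 1.65.

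Selp, whose protein is stored in Weibel-Palade bodies and platelets, was low throughout. Its level was 3.46 and 0.869 in sham P1, and 4.44, 9.82, 3.96 and 3.75 in MI P1. In sham P56 it was 0.381, 0.466, 0.380 and 0.834, and in MI P56 it was 5.45, 1.79 and 1.38. At both ages every infarct library was above every sham library. The mean was 2.87 ± 2.24 (SD, n = 3) in MI P56 against 0.515 ± 0.216 (n = 4) in sham P56, a 5.58-fold ratio, and 5.49 ± 2.90 (n = 4) in MI P1 against 2.16 ± 1.83 (n = 2) in sham P1, a 2.54-fold ratio. These ratios turned on single libraries, being 3.08-fold at P56 without MI P56 library 1, and 1.59-fold or 6.32-fold at P1 without sham P1 library 5 or 3.

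The Selp differences did not pass the limma test. The log2 difference was 1.22 ± 0.42 (SE) at P56 (limma, adjusted p = 0.122) and 1.08 ± 0.47 at P1 (adjusted p = 1). Leaving out each library in turn gave 0.78 to 1.5 at P56 and 0.45 to 1.71 at P1. The count models on the recovered reads placed the P56 difference past the threshold, at 2.47 with edgeR (adjusted p = 0.0469) and 2.46 with DESeq2 (adjusted p = 0.00382). These models called 2.62% and 6.64% of all genes there, against 3.42% with limma. Genes with all MI libraries above all sham libraries were 8% of those tested at P56 and 8.89% at P1. The 2 responses could not be told apart, with an interaction of 0.14 (95% interval -1.18 to 1.46). With age, Selp differed by -0.94 in sham (limma, adjusted p = 0.213) and by -0.80 after MI (adjusted p = 0.329), and DESeq2 alone called the former, at -2.10 (adjusted p = 0.0261), where it called 16.5% of all genes.

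Platelet markers found in the table (4 of 8: Itga2b, Pf4, Ppbp and Gp1ba) summed to 2.06 to 5.97 in sham P1 and 6.84 to 26.9 in MI P1, which do not overlap. At P56 their sums were 0.612 to 5.43 in sham and 2.10 to 3.41 after MI. None of the 4 was at 0 in any group, and their part in the Selp values at either age was not tested. The partner of P-selectin in Weibel-Palade bodies, Vwf (von Willebrand factor), was at 1.5 ± 0.0318 (SD, n = 2) in sham P1 and 13.6 ± 6.34 (n = 4) in MI P1, with a log2 difference of 2.44 that did not pass the test (limma, adjusted p = 0.22). At P56 Vwf was at 23.2 ± 19.5 (n = 4) in sham and at 14.1 ± 2.51 (n = 3) after MI.

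Vcam1, the ligand of the integrin VLA-4, was the 1 member called higher after infarction in adults. Its level was 5.42, 10.9, 11.7 and 17.0 in sham P56 and 19, 37.7 and 42.2 in MI P56, so that the lowest infarct library lay above the highest sham library. Such a separation was found for 8% of all genes tested. The means were 11.2 ± 4.72 (SD, n = 4) and 33.0 ± 12.3 (n = 3), a 2.93-fold ratio, and the log2 difference was 1.49 ± 0.38 (SE; limma, adjusted p = 0.0367). It was 1 of 5 members called in this comparison, in which 3.42% of all genes tested were called (307 higher and 139 lower).

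The Vcam1 call lay near the threshold. It was lost without sham P56 library 1 (adjusted p = 0.0888), sham P56 library 3 (0.0551), MI P56 library 2 (0.125) or MI P56 library 3 (0.211), in limma fits whose differences ran from 1.21 to 1.83 over all leave-outs. It was also lost with all 16 libraries (1.19, limma adjusted p = 0.641) and with edgeR (1.56, adjusted p = 0.0518), while DESeq2 called it at 1.54 (adjusted p = 0.00655).

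Markers of other cell types differed between the same adult groups. VCAM-1 is also made by stromal cells, and fibroblast markers (6 of 6 in the table) summed to 437, 2120.8, 1283.7 and 891 in sham P56 libraries 1, 2, 3 and 5 and to 1443.8, 2834.7 and 3112.9 in MI P56 libraries 1, 2 and 3. Col1a1, a collagen gene, was the 1 fibroblast marker called (147 ± 90.1, n = 4, to 1439.1 ± 643, n = 3; log2 difference 3.38, limma adjusted p = 0.000912). The other 5 summed to 379, 1850.4, 1137.2 and 779 in those sham libraries and to 677, 1332.9 and 1064.3 after MI, a ratio of means of 0.989 against 2.08 for all 6. Dcn, the largest part of that sum, was at 738 ± 442 in sham P56 and 613 ± 197 in MI P56 (log2 difference -0.11). Pdgfra, Tcf21, Lum and Dpt had log2 differences of 0.59, 0.23, 0.82 and 0.56, and none of the 5 was called. Macrophage markers (6 of 8 in the table) summed to 4.92 to 8.83 in sham P56 and to 15.6, 83.7 and 62.9 in MI P56. Cardiomyocyte markers were all called lower (6 of 6), with sums of 1220.6 to 2224.8 in sham P56 and 310 to 540 in MI P56. The lymphatic markers summed to 3071.1, 2271.2, 2331.8 and 1739.1 in sham P56 libraries 1, 2, 3 and 5. In MI P56 libraries 1, 2 and 3 they summed to 2349.7, 1534.1 and 981. Their median log2 difference was -0.33, and 0 of 7 were called. No marker of these lists was at 0 in either group. The part of all these markers in the Vcam1 difference was not tested.

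At P1 Vcam1 was 20.1 and 24.2 in sham and 56, 59.1, 27 and 20.0 after MI. The groups overlapped, since 1 infarct library (20.0) lay below both sham libraries. The means were 22.1 ± 2.86 (SD, n = 2) and 40.5 ± 19.9 (n = 4), with a log2 difference of 0.71 (95% interval -0.20 to 1.62). The neonatal and adult responses were not separated by the test of their difference, 0.78 (95% interval -0.43 to 1.99; limma, adjusted p = 0.694). Neither did Vcam1 pass the test with age, at -1.01 in sham (adjusted p = 0.142) and -0.23 after MI (adjusted p = 0.829).

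Icam1, the ligand of the integrins LFA-1 and Mac-1, was lower at P56 than at P1 after infarction. It was at 14.0 and 10.6 in sham P1 and at 23.7, 18.6, 9.70 and 16.6 in MI P1. The adult values were 5.56, 0.336, 5.64 and 6.92 without infarction and 2.66, 6.06 and 3.35 with it. The neonatal libraries of these 13 lay above the adult ones, and sham P56 library 2 stood far below the rest. Groups apart in this direction were found for 16.7% of genes tested in sham and 11.2% after MI. After MI the mean was 17.2 ± 5.81 (SD, n = 4) at P1 and 4.03 ± 1.79 (n = 3) at P56, a 4.26-fold ratio, and the log2 difference was -1.85 ± 0.48 (SE; limma, adjusted p = 0.0295). In sham the means were 12.3 ± 2.43 (n = 2) and 4.62 ± 2.92 (n = 4), with a difference of -1.51 that did not pass (limma, adjusted p = 0.0772).

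The Icam1 call after MI was lost when any 1 of 5 libraries was left out, MI P1 libraries 1, 2 and 5 (limma, adjusted p = 0.0934, 0.0752 and 0.072) and MI P56 libraries 1 and 3 (0.122 and 0.0909). It was lost with edgeR as well (-2.09, adjusted p = 0.0907) and with all 16 libraries (-1.60, limma adjusted p = 0.701), and DESeq2 kept it (-2.10, adjusted p = 0.00823). Of all genes, limma called 5.35%, edgeR 3.73% and DESeq2 7.86% in that comparison. The difference in sham passed without sham P56 library 5 (-1.77, limma adjusted p = 0.049). Infarction gave Icam1 a difference of 0.06 at P56 (95% interval -0.95 to 1.07) and 0.39 at P1 (-0.75 to 1.54). The sign at P56 turned without sham P56 library 2 (-0.54) or MI P56 library 2 (-0.21).

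Icam2, the ICAM of resting endothelium, passed the test in no comparison. It was at 2.93 and 5.87 in sham P1 and at 6.32, 6.21, 8.85 and 2.93 in MI P1. The adult values were 12.7, 2.85, 6.78 and 11.7 without infarction and 4.92, 4.57 and 3.00 with it. The groups overlapped in every comparison. The widest contrast of means was between sham P56, at 8.52 ± 4.59 (SD, n = 4), and MI P56, at 4.16 ± 1.02 (n = 3), with a log2 difference of -0.74 (95% interval -1.62 to 0.14; limma, adjusted p = 0.389). At P1 the difference was 0.37 (95% interval -0.63 to 1.37). The test of the difference between the 2 responses gave -1.11 (95% interval -2.45 to 0.22; adjusted p = 0.564).

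**Figure D2:**
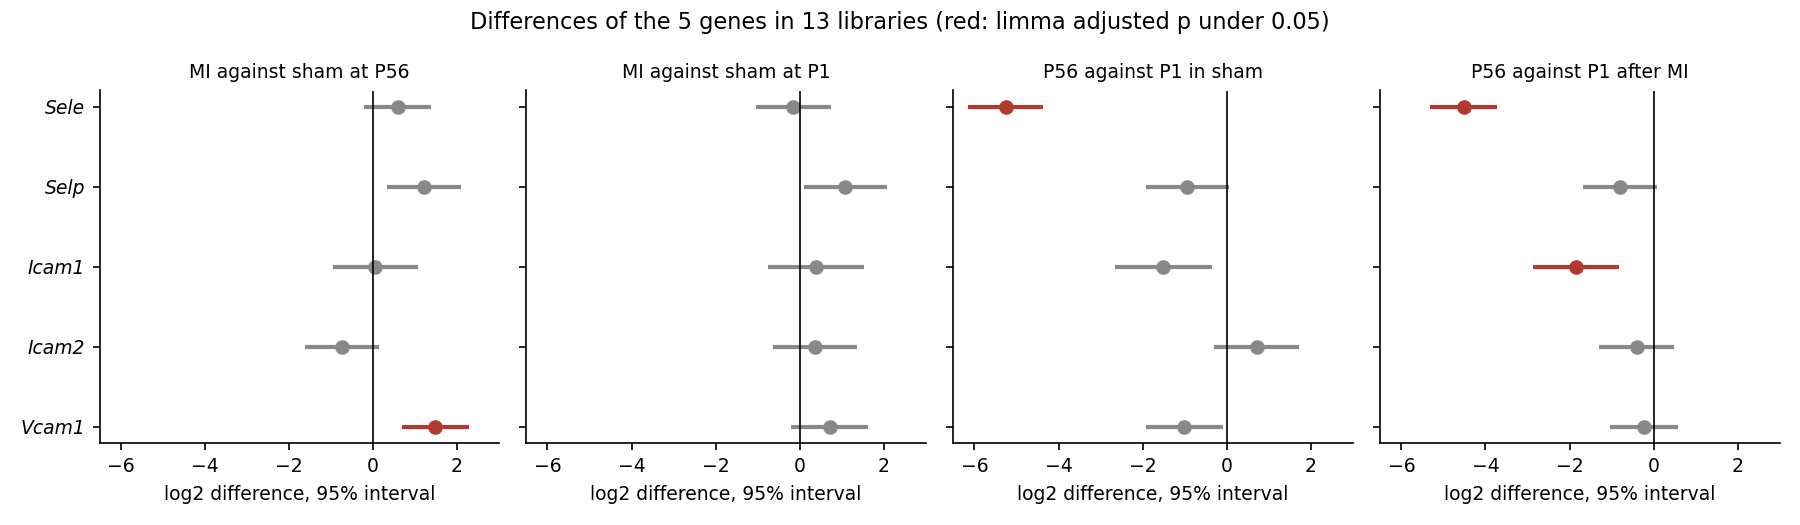
Log2 differences of the 5 genes with 95% intervals from the limma fit of 13 libraries, for infarction at each age and for age in each surgery group. Red marks an adjusted p under 0.05 over 13033 genes: Vcam1 after infarction at P56 (1.49), Sele with age in sham (-5.26) and after MI (-4.52), and Icam1 with age after MI (-1.85).

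Across the comparisons, infarction at P1 called 0 of the 5 genes and 0% of all genes tested with limma. At an unadjusted p under 0.05 there were 485 genes, and edgeR called 0 and DESeq2 called 7 (0.0537%). The interaction called 0 of the 5, against 0.483% of all genes. With age in sham 1 of 5 was called (all genes 13.2%), and with age after MI 2 of 5 (all genes 5.35%). The 2 comparisons of age use separate libraries, whereas the comparisons of infarction and of age at the same group share theirs.

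Per kilobase of the longest coding transcript, Sele led the 5 genes in every neonatal library. Its level per kilobase averaged 18.3 ± 2.32 (SD, n = 2) in sham P1 and 17.8 ± 7.55 (n = 4) in MI P1, ahead of Vcam1 at 6.38 ± 0.823 and 11.7 ± 5.73. Icam1 followed at 4.86 ± 0.958 and 6.77 ± 2.29 and Icam2 at 3.43 ± 1.62 and 4.74 ± 1.89, neighbours within their spread. Selp was lowest, at 0.630 ± 0.533 and 1.60 ± 0.843. In MI P1 the spreads of Sele and Vcam1 overlapped.

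In adults the order changed. In sham P56 Icam2 averaged 6.65 ± 3.58 (SD, n = 4) per kilobase and Vcam1 3.24 ± 1.36, which overlap, followed by Icam1 at 1.82 ± 1.15, with Sele at 0.181 ± 0.261 and Selp at 0.150 ± 0.0629 near the bottom and not separated. In MI P56 Vcam1 averaged 9.51 ± 3.55 (n = 3), Icam2 3.25 ± 0.799, Icam1 1.59 ± 0.708, Selp 0.836 ± 0.651 and Sele 0.395 ± 0.118. The sum of the 5 per kilobase ran from 24.2 to 58.8 in MI P1, 31.3 to 35.9 in sham P1, 12.2 to 17.7 in MI P56 and 5.63 to 17.1 in sham P56. Sele made up 35.1% to 55.5% of that sum in neonatal libraries and 0.158% to 4.89% in adult ones. Vcam1 led 4 adult libraries and Icam2 led 3, or 2 and 5 where the length was taken over all annotated exons, so the order of these 2 in adults rests on the length used.

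**Figure D3:**
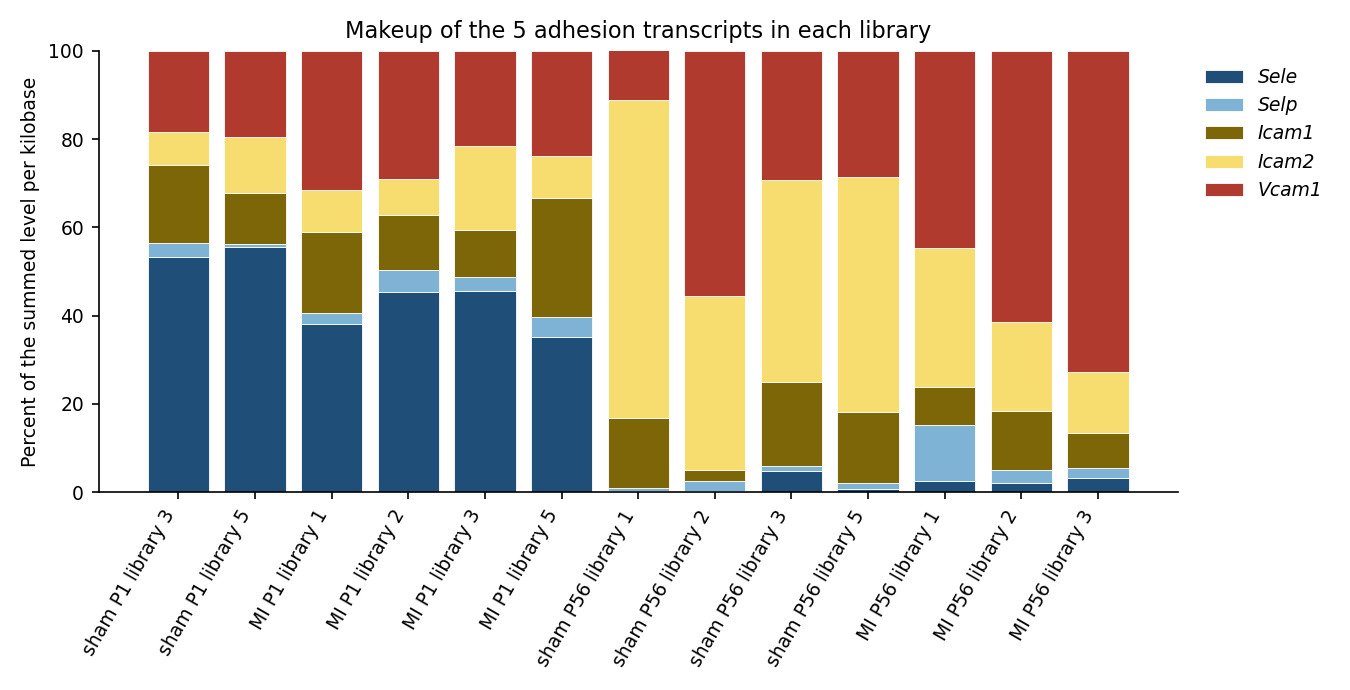
Share of each gene in the summed level per kilobase of the 5 genes, for each of the 13 libraries tested. Sele holds 35.1% to 55.5% in the neonatal bars, and Vcam1 holds 44.7% to 72.6% in the bars of infarcted adult hearts.

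Of the other adhesion and transmigration molecules of endothelium, 2 junction genes were lower after adult infarction. Of 15 others tested, 0 were higher and 2 lower after infarction at P56, with a median log2 difference of -0.48 against 0.01 over all genes. Over all genes tested, 3.42% were called with infarction at P56, 13.2% with age in sham and 5.35% with age after MI. These shares also stand beside the counts of the lists below. The 2 were Cdh5, the cadherin of endothelial junctions (161 ± 16.5, n = 4, to 97.3 ± 14.6, n = 3; log2 difference -0.73, limma adjusted p = 0.0447), and the junction molecule Esam (10.2 ± 2.46 to 4.00 ± 1.38; -1.16, adjusted p = 0.0414). Both calls held in only 3 of 13 fits that left out 1 library. Pan-endothelial markers, a list that holds Cdh5 itself and shares Pecam1 with this one, summed to 582 to 668 in sham P56. In MI P56 they summed to 296 to 515 (0 of 6 at 0). Of these 6 markers 3 were called lower, Cdh5 among them, and 0 higher. Their part was not tested. With age in sham, 4 of the 15 were higher and 1 lower. The junction molecule Jam2 rose from 13.9 ± 3.15 (n = 2) to 83.0 ± 34.6 (n = 4; log2 difference 2.39, adjusted p = 0.000242), Esam rose by 1.76 (adjusted p = 0.00193), the sialomucins Podxl and Emcn rose by 1.54 and 1.44 (adjusted p = 0.00061 and 0.00178), and Alcam fell by 2.05 (adjusted p = 0.00157). The blood endothelial sums given above were higher in the adult sham libraries too, with 6 of 9 such markers called higher, and their part was not tested. After MI Jam2 was higher at P56 by 1.67 (adjusted p = 0.00457) and Cdh5 lower, at -0.90 (adjusted p = 0.00948).

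Several NF-kB subunits and feedback targets were lower in adults. Of 18 tested, 6 were lower and 0 higher at P56 in sham, with a median log2 difference of -0.57 against 0.00 over all genes, and 5 were lower and 0 higher after MI, with a median of -0.49. Of all genes tested, 7.28% were called lower at P56 in sham and 3.26% after MI. The neutrophil chemokine Cxcl1 went from 69.7 ± 13.3 (SD, n = 2) in sham P1 to 1.29 ± 1.11 (n = 4) in sham P56, a log2 difference of -5.04 (limma, adjusted p = 2.44e-06). Il6 went from 8.53 ± 0.793 to 0.0570 ± 0.0475 (-3.17, adjusted p = 7.17e-05). Nfkbiz, a nuclear IkB protein, fell by 2.48 (adjusted p = 1.26e-05), the monocyte chemokine Ccl2 fell by 2.09 (adjusted p = 0.00631), the inhibitor Nfkbia fell by 1.88 (adjusted p = 0.000399) and the subunit Rel fell by 1.15 (adjusted p = 0.0176). After MI the 5 were Cxcl1 (-2.21, adjusted p = 0.00368), Nfkbia (-2.11, adjusted p = 0.000113), the deubiquitinase Tnfaip3 (-1.87, adjusted p = 0.0026), Rel (-1.80, adjusted p = 0.000506) and Nfkbiz (-1.37, adjusted p = 0.00233). Age cannot be told apart from the longer neonatal digestion for the genes of this list, nor for Sele.

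The same list held 4 genes that were higher and 0 lower after infarction at P56, with a median of 0.52 against 0.01. Of all genes tested, 3.42% were called in this comparison. Cxcl1 rose from 1.29 ± 1.11 (n = 4) to 15.4 ± 3.83 (n = 3), a log2 difference of 2.92 (limma, adjusted p = 0.000578). Ccl2 rose by 2.46 (adjusted p = 0.00246), Il6 by 2.01 (adjusted p = 0.00451) and Nfkbiz by 1.33 (adjusted p = 0.00393), and all 4 calls held in 13 of 13 leave-out fits. The inhibitor Nfkbia (7.85 ± 2.41 in sham P56, 6.47 ± 0.288 in MI P56) and the deubiquitinase Tnfaip3 (5.06 ± 2.5 and 8.62 ± 5.05) were not called. Leukocyte markers summed to 2.35 to 7.83 in sham P56 and 9.17 to 32.5 in MI P56 (2 of 5 tested called higher), and 2 of 4 macrophage markers tested were called higher. The part of these and of the cardiomyocyte shift given above was not tested. Among the 4 libraries of sham P56 Il6 ran from 0 to 0.102, and in MI P56 from 2.44 to 4.19. The adult infarct level of Cxcl1 was still below the neonatal one of 88.1 ± 64.9 in MI P1. At P1 0 of the 18 passed, and the smallest p was that of Tnfaip3, at 10.5 ± 1.06 (n = 2) in sham and 31.9 ± 6.68 (n = 4) after MI (1.5, adjusted p = 0.757).

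Some genes known to restrain adhesion molecule transcription were lower in adults. Of 7, 4 were lower and 0 higher in sham P56: Socs3, which limits cytokine signalling (31.0 ± 0.0283, n = 2, to 1.06 ± 0.615, n = 4; log2 difference -4.02, limma adjusted p = 1.26e-05), Atf3 (-3.45, adjusted p = 7.15e-06), the nuclear receptor Nr4a1 (-2.91, adjusted p = 0.000539) and Klf4 (-1.09, adjusted p = 0.00531). After MI Atf3 (-3.09, adjusted p = 1.21e-05), Socs3 (-2.13, adjusted p = 0.00309) and Klf4 (-1.81, adjusted p = 5.6e-05) were lower at P56. The share of all genes called lower was 7.28% in sham and 3.26% after MI. Infarction at P56 raised Socs3 by 1.93 (adjusted p = 0.00862) and Nr4a1 by 1.61 (adjusted p = 0.0463, held in 2 of 13 leave-out fits). Atf3, Nr4a1 and Socs3 are also known as early-response genes of tissue dissociation, and the longer neonatal digestion cannot be told apart from age in these groups.

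**Figure D4:**
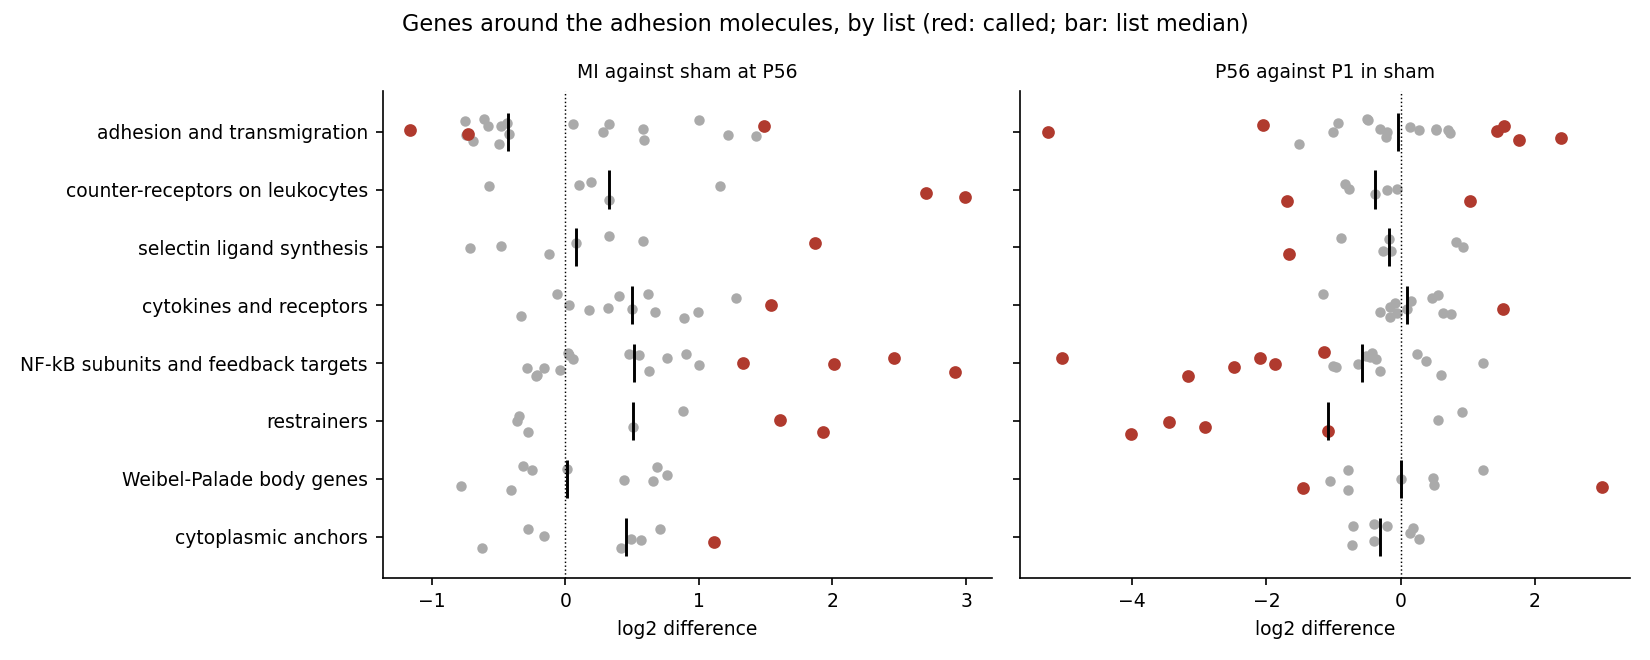
Log2 differences of the genes of 8 lists for infarction at P56 and for age in sham, 1 point per gene tested. Red points have a limma adjusted p under 0.05, grey points do not, and black bars are list medians. The list of NF-kB subunits and feedback targets has 4 red points above 0 with adult infarction (Cxcl1, Ccl2, Il6 and Nfkbiz) and 6 below 0 with age.

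Il1r1 was the upstream cytokine receptor called after adult infarction. Of 13 cytokines and receptors tested, 1 was higher and 0 lower at P56, this interleukin-1 receptor (33.3 ± 15.7, n = 4, to 93.2 ± 19.5, n = 3; log2 difference 1.54, limma adjusted p = 0.0109). The list's median was 0.50 against 0.01 over all genes, with 11 of 13 above 0. With age 1 was higher in sham, Ifngr1 (1.53, adjusted p = 0.00864), and 1 after MI, the alarmin Il33 (1.79, adjusted p = 0.0011), where the median was 0.62. Tnf itself averaged 0.672 ± 0.485 in MI P1, 0.0738 ± 0.104 in sham P1, 0.0522 ± 0.0540 in MI P56 and 0.183 ± 0.366 in sham P56, and it was at 0 in at least 1 library of 3 of these groups.

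Of the genes listed as counter-receptors of these molecules, 2 of 7 tested were higher and 0 lower after infarction at P56. Itgam, the Mac-1 subunit that binds ICAM-1, rose from 0.156 ± 0.122 (n = 4) to 9.39 ± 5.53 (n = 3; log2 difference 2.99, limma adjusted p = 0.000455). Cd44, a hyaluronan receptor that can carry selectin ligands, rose from 3.25 ± 2.09 to 24.3 ± 3.40 (2.70, adjusted p = 0.000799). Cd44 was also the 1 gene of this list called in the interaction (2.81, adjusted p = 0.047, held in 3 of 13 leave-out fits). Itgam is also in the macrophage list, whose sums are given above beside Vcam1. In sham P56 the listed Itga9 averaged 156 ± 14.4 and Glg1 71.8 ± 5.11, and the leukocyte marker Ptprc 0.939 ± 0.416. Which cells the transcripts of this list came from was not tested. The subunits of VLA-4, the partner of VCAM-1, were at 2.24 ± 0.920 (Itga4) and 143 ± 1.88 (Itgb1) in sham P56 and at 2.94 ± 0.404 and 153 ± 17.1 in MI P56, and neither passed the test. With age in sham Cd44 fell by 1.69 (adjusted p = 0.0181) and Itga9 rose by 1.04 (adjusted p = 0.00274), and after MI Itgam was higher at P56 by 1.77 (adjusted p = 0.0157).

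Of 7 genes of selectin ligand synthesis tested, Chst2, a sulfotransferase that finishes selectin ligands, was the 1 called. It went from 3.26 ± 0.895 (n = 4) to 14.6 ± 3.14 (n = 3) with infarction at P56 (log2 difference 1.87, limma adjusted p = 0.000577), and from 12.4 ± 2.07 (n = 2) in sham P1 it was lower in sham P56 (-1.67, adjusted p = 0.000982). After MI 0 of the 7 passed with age. Among 9 Weibel-Palade body genes 0 passed with adult infarction, where Plat, the tissue plasminogen activator, had the smallest p (0.69, adjusted p = 0.192). With age in sham Vwf rose by 3.00 (adjusted p = 0.000324) and Plat fell by 1.45 (adjusted p = 0.00408), and after MI Angpt2 and Plat were lower at P56, by -1.21 and -1.01 (adjusted p = 0.0362 and 0.037, each held in 7 of 13 leave-out fits). Of 8 cytoplasmic anchors, Actn1 was higher after infarction at P56 (1.11, adjusted p = 0.0494, held in 2 of 13 leave-out fits), 0 passed with age in sham, and Cav1 was lower at P56 after MI (-0.88, adjusted p = 0.0307).

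Genes most like each member were found by Pearson's r of log2(value + 1) over 13 libraries, among genes tested with a mean of at least 5. These libraries fall into 6 neonatal and 7 adult ones, which the values share. Sele was closest to Xist (r = 0.979), the fetal growth transcripts H19 (0.975) and Igf2 (0.974). Igf2 averaged 1004.4 ± 15.7 in sham P1 and 32.3 ± 7.11 in sham P56, and Xist, the RNA that silences an X chromosome in females, 613 ± 250 and 0.869 ± 0.470; the labels give the sex of the adults only. Icam1 was closest to Rgl1 (0.965), Rfc5 (0.942) and Sqstm1 (0.938); Rfc5 ran down to 0.103 in sham P56. Selp was closest to Vangl2 (0.888), Zfp568 (0.885) and Ccl2 (0.880), Icam2 to Rin3 (0.928), Crat (0.846) and the endothelial receptor Robo4 (0.837), and Vcam1 to Sparc (0.897), Rpl14 (0.893) and Eprs (0.884). Sparc, a matrix protein gene, averaged 438 ± 185 in sham P56 and 1238.1 ± 471 in MI P56.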

How the data were processed

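RNA of sorted cardiac lymphatic endothelial cells was sequenced after Ovation amplification as single reads. The submitters' processing notes name edgeR, HTSeq, STAR and Trimmomatic and the build mm10 (GRCm38). The deposited signal of a gene equals its reads multiplied by a library's own scaling constant, made by the authors. Dividing by that constant gave whole reads for 100% of values, within 0.01 read. The test planned for plain CPM was kept. Column 5 of each group has no counterpart among the label numbers and was placed by its name. Values were tested as log2(value + 1) with limma-trend (limma 3.58.1, R 4.3.3), two-sided, in 1 fit of 4 groups over 13 libraries with a read on at least 10000 genes, for 13033 genes that reached a value of 1 in 4 or more libraries. Calls are Benjamini-Hochberg adjusted p under 0.05 over all these genes. Alternatives were edgeR 4.0.16 and DESeq2 1.42.0 run on whole reads, other filters, pseudocounts, scalings, library weights and a replicate block. The method was tested on simulated data. Genes of each list were named if called, at most 4 per direction by size, and otherwise by the smallest p. Itga4, Itgb1 and Tnf values were added after values were seen. The 5 genes and all lists were chosen with earlier results of these data known. GENCODE M21 and RefSeq gave lengths and promoters. Neutrophil markers were not analysed here. Counting error alone is covered by Poisson intervals.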

Additional observations from a re-analysis of the deposited data

Results flagged for a closer look

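Of 20 groups of libraries examined for a single library far from the others, 2 had one, and chance gives about 1 in 20. Selp in MI P1 library 2 was 9.82, while the other 3 MI P1 libraries lay between 3.75 and 4.44. Sele in MI P56 library 5 was 21.6, against 0.862 to 1.53 in the other 3 MI P56 libraries. That value rests on 5 reads, with an exact 95% Poisson interval of 7.00 to 50.3 that covers counting error only. The library is 1 of the 3 left out of the tests, and there Xist was at 272 (63 reads), H19 at 190 (44 reads) and Igf2 at 358 (83 reads), against at most 2.03, 13.3 and 43.7 in the other MI P56 libraries.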

How the results depend on the processing

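Sele kept its direction and its call with age under every alternative run, in sham and after MI. Vcam1 after infarction at P56 missed the threshold with all 16 libraries (1.19), edgeR (1.56), only the groups compared (1.49) and the replicate block (1.48). Icam1 with age after MI missed it with all 16 libraries (-1.60), a pseudocount of 0.25 (-2.04), edgeR (-2.09) and the replicate block (-1.77). Selp passed at P56 with edgeR (2.47) and DESeq2 (2.46), and with age in sham with DESeq2 (-2.10). Counts of the 5 genes called became, at P56, 0 with all 16 libraries, only the groups compared or the block and 2 with DESeq2, with age in sham 2 with DESeq2, and with age after MI 1 with all 16 libraries, a pseudocount of 0.25, edgeR or the block. The cause was not tested.

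Signs turned only for differences that passed no test. Icam1 at P56 was -0.04 with a pseudocount of 4, -0.13 with quantile normalization, -0.20 with edgeR and with DESeq2 and -0.41 with library weights. Sele at P1 was 0.48 with all 16 libraries and 0.01 with weights. The Selp interaction was -0.26 with all 16 libraries, -0.05 with a pseudocount of 4, -0.02 with quantile normalization and -0.14 with weights, and that of Vcam1 -0.27 with all 16 libraries. With all 16 libraries the median of all genes itself was between -0.50 (interaction) and 0.39 (MI at P1).

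Counts over all genes at P56 were 23 with all 16 libraries, 866 with DESeq2, 199 with only the groups compared and 768 with weights. At P1 they were 1 with the stricter filter, 2 with a pseudocount of 0.25 and with quantile normalization, 7 with DESeq2 and with only the groups compared and 8 with weights. For the interaction they were 1 with all 16 libraries, 34 with a pseudocount of 4, 324 with DESeq2, 317 with weights and 8 with the block. With age in sham they were 518 with all 16 libraries, 1023 with only the groups compared and 2766 with weights, and after MI 14, 1215 and 1365.

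Leaving out each library in turn, the 5 genes called ranged from 0 to 1 at P56, 1 to 2 with age in sham and 1 to 2 with age after MI. Vcam1 ranged from 1.21 to 1.83 at P56 and from -0.51 to 0.12 with age after MI, the last without MI P56 library 1. Icam1 ranged from -0.54 to 0.32 at P56, from -1.77 to -0.91 with age in sham and from -2.12 to -1.65 after MI. Sele at P1 ranged from -0.38 to 0.16, Icam2 at P1 from -0.03 to 0.77 and the Selp interaction from -0.49 to 0.77. Genes called ranged from 143 (without MI P56 library 3) to 645 at P56, 0 to 2 at P1, 1 (without sham P1 library 5) to 228 (without sham P56 library 2) for the interaction, 644 (without sham P1 library 5) to 2270 with age in sham and 317 (without MI P56 library 2) to 1344 (without sham P56 library 2) after MI.

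Deviations from group means of libraries with the same number had r from -0.3205 to 0.1355 (15 pairs, 1 over 0.1). In such deviations the 2 sham P1 libraries mirror each other, so this check cannot exclude pairing. The numbers were not taken as pairs in the main fit, and the block values above are given as an alternative. The 2 sham P1 libraries limit what can be seen at P1, and Sele rested on 3 reads and 1 read in 2 of the 4 adult sham libraries. Ratios of means without 1 library, and the fibroblast sum without Col1a1, were added after seeing the data.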

Other observations

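The 3 libraries left out of the tests gave these levels. In sham P1 library 1 Sele was at 56.2 (470 reads), Icam1 at 0.239 (2 reads), Vcam1 at 2.87 (24 reads) and Selp and Icam2 at 0. A value of 3 reads was 0.359 there, against 0.0489 to 0.109 in the 13 libraries tested. Its lymphatic markers summed to 6213.9, against at most 3071.1 in the 13, so its levels cannot be ranked among theirs. In sham P1 library 2 Vcam1 had 4 reads, Sele and Icam2 2 reads each, Icam1 1 read and Selp 0. In MI P56 library 5 Vcam1 had 3 reads, Selp and Icam1 2 reads each and Icam2 0.

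Within groups, the deviations of the 5 genes from their group means were compared over the 13 libraries as a description. The closest pair was Sele and Vcam1 (r = 0.66), followed by Icam1 and Icam2 (r = 0.52). Sele and Icam1, with r = 0.81 across all libraries, had r = 0.32 within groups.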
